A study of Mus musculus with 18 samples.

Results

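Grb10, Nnat and Peg13 are 3 imprinted mouse genes whose promoters were chosen by their measured promoter level in cells with WT DNMT1: in an earlier look at these data they carried most of the methylation of a list of imprinted promoters there. They are 3 of the 52573 annotated genes that had at least 1 usable CpG in the gene or in 5 kb on either side. A CpG was usable where all 18 libraries had at least 1 read over it, and the level of a region is the share of methylated reads among all reads summed over its usable CpGs. Because WT promoter levels chose the genes, those levels and promoter differences from WT stand here as a description, without a test.

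CpG methylation was read by bisulfite sequencing of restriction fragments, a reduced-representation assay that samples CpG-rich DNA most densely. All 6 groups were mouse embryonic stem cells in which the Dnmt1 gene was knocked out and which stably carried DNMT1 in the pPyCAGIP vector under puromycin selection. By their labels the groups differed in the DNMT1 they expressed, which was WT, W796A, W465A, W464A/W465A, W465A/W796A or W464A/W465A/W796A, each with 3 biological replicates. Several stable lines were made per group, and whether the replicates of a group were separate lines is not given in the sources used here, so the p-values measure the spread between these libraries. Empty-vector knockout cells were not analysed here.

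DNMT1 copies CpG methylation onto the new strand after DNA replication. The tryptophans replaced in W464A and W465A lie in its RFTS domain, which reads ubiquitinated and methylated histone H3, and that replaced in W796A lies in its first BAH domain, which reads methylated histone H4. An imprinted gene is expressed mainly from 1 parental allele. At many such genes a CpG island carries methylation set in the germline on 1 allele, which DNMT1 then has to maintain, and which is known in general not to return once embryonic stem cells have lost it. Grb10 encodes an adaptor protein that restrains insulin and growth factor signalling and is expressed from either parental allele depending on tissue. Nnat encodes neuronatin, a small membrane protein, and lies inside Blcap. Peg13 is a long non-coding RNA gene, expressed from the paternal allele, inside an intron of Trappc9.

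The table listed 21867550 CpGs, of which 6143659 (28.1%) were usable, and CpG calls per library ranged from 59776439 to 138978763. In GRCm38 with GENCODE M21 annotation, Grb10 (ENSMUSG00000020176.17) lies at chr11:11930508-12038683 on the minus strand, Nnat (ENSMUSG00000067786.16) at chr2:157560078-157562522 on the plus strand, and Peg13 (ENSMUSG00000106847.1) at chr15:72805600-72810324 on the minus strand. With 5 kb on either side, 580 of 1264 CpGs were usable for Grb10, 157 of 314 for Nnat and 99 of 242 for Peg13, at a median of 10, 13 and 10 reads per CpG and library. Promoters of 5 embryonic stem cell marker genes (Pou5f1, Nanog, Sox2, Esrrb and Tdgf1) lay between 0.209% and 6.35% in WT, and expression was not measured. Chromosome 11, which holds Grb10, took between 0.961 and 1.42 times its median read share, and stood highest, at 1.34 to 1.42 times, in WT replicates 1 and 2, W465A/W796A replicates 1 and 3 and W464A/W465A/W796A replicate 3. Chromosomes 2 and 15 lay between 0.948 and 1.01 times in every library. The part of this read share in the Grb10 levels was not tested.

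4 stretches of 300 bases show what the levels refer to: the densest part of the CpG island at the Nnat start, of the island at the Peg13 start and of the island inside Grb10, and the CpG-poorer DNA in the first intron beside the outermost Grb10 start, ending 200 bases short of that start. They are GRCm38 plus-strand sequence, 5′ to 3′, with usable CpGs in capitals.
Nnat island, chr2:157560282-157560581: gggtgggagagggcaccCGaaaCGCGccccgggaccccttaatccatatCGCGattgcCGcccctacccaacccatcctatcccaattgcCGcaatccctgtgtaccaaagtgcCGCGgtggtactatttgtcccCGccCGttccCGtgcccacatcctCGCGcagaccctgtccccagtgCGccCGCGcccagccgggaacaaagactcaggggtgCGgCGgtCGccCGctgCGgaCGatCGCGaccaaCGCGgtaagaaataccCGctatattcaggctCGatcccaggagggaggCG
Peg13 island, chr15:72809788-72810087: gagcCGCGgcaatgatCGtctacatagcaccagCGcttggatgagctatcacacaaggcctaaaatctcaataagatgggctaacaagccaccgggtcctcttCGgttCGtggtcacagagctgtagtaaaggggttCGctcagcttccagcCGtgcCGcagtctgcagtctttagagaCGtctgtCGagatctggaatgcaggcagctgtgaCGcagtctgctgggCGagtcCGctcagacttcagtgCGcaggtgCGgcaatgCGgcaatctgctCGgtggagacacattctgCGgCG
Grb10 inner island, chr11:12026325-12026624: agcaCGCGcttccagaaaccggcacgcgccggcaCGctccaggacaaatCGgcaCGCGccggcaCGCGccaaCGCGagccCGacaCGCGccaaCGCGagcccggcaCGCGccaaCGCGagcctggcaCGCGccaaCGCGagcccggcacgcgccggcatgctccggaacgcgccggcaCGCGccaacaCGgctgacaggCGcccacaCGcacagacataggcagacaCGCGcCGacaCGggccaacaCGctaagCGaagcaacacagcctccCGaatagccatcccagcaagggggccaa
Grb10 beside outermost start, chr11:12038184-12038483: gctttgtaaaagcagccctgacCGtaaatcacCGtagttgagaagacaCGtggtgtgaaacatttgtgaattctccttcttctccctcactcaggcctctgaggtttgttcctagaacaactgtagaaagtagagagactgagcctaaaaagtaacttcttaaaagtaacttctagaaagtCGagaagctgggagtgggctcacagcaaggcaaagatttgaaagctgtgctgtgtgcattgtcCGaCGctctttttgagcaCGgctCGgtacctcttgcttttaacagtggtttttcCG

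These windows hold 30 usable CpGs of 32, 20 of 21, 35 of 49 and 9 of 9, in that order. In WT, the level over the Nnat window was 22.0% ± 14.9 (SD, n = 3), over the Peg13 window 14.5% ± 10.6 (SD, n = 3), over the Grb10 inner-island window 1.79% ± 2.08 (SD, n = 3) and over the window beside the outermost Grb10 start 42.2% ± 20.3 (SD, n = 3). The hexamer TGCCGC, which the imprint-protecting protein ZFP57 binds when methylated, occurred on either strand 3 times in the Nnat window and 4 times in the Peg13 window, and not in these letters in either Grb10 window. Over whole islands it occurred 6 times in 1051 bases at the Nnat start and 5 times in 1094 bases at the Peg13 start. It occurred 4 times in 1666 bases and 5 times in 1995 bases in the nearly unmethylated Grb10 islands, and 1 time in 1128 bases in the second island of the Nnat locus. Of 32851 RefSeq promoters of 300 bases in GRCm38.p6, 3813 (11.6%) held it at least once on either strand, a share that does not apply to the longer islands.

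The Nnat start island was partly methylated in WT and W796A and close to unmethylated in every library with W465A. The island spans chr2:157559697-157560747 and covers the starts of 9 of 10 annotated transcripts. Over the 50 usable CpGs within 500 bp of any Nnat start, the promoter level was 37.4%, 11.1% and 22.4% in WT replicates 1 to 3. In W796A it was 26.1%, 11.6% and 72.7%. The W796A libraries thus spanned more than the WT libraries, and both groups overlapped. In W465A the promoter level was 1.19%, 0.980% and 0.561%, and in W464A/W465A it was 0.622%, 0.771% and 0.824%. In W465A/W796A it was 0.485%, 0.418% and 1.10%, and in W464A/W465A/W796A 1.01%, 0% and 0%. Each of these 12 libraries lay below each WT and W796A library, and none of these 4 groups stood apart from the other 3. The levels of 0% came from 558 and 694 reads, which allow a level of up to 0.538% and 0.432%.

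**Figure D1:**
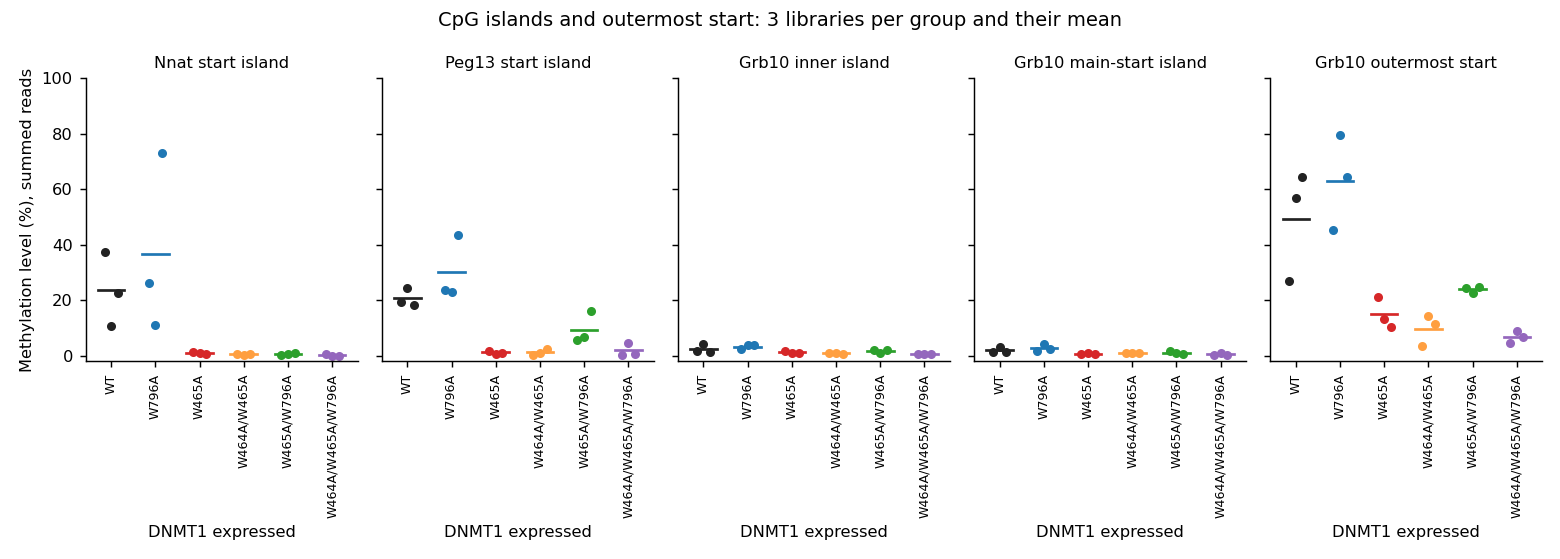
Methylation level (y axis, percent of reads) in each library (points) and its mean over the 3 libraries of a group (lines), for 4 CpG islands and the outermost Grb10 start, by the DNMT1 expressed (x axis). At the Nnat island WT and W796A libraries lie between 10.7% and 73.0% and the other 12 at or under 1.23%, whereas at the Peg13 island W465A/W796A libraries lie between 5.50% and 16.0%.

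W796A replicate 3 set the spread at Nnat. In this library all 44 usable CpGs of the start island were at 50% or more, with a median CpG level of 74.3%, while in W796A replicates 1 and 2 no CpG reached 50% and the medians were 26.0% and 13.6%. Its promoter level of 72.7% rested on 604 reads, with a 95% Wilson interval of 69.0% to 76.1% that covers counting error only and is too narrow where 1 fragment spans several CpGs. In WT the median CpG level of the island was 37.5%, 4.76% and 20% in replicates 1 to 3. No CpG of WT replicate 2 reached 50%, while 7 of the 44 did in replicate 1 and 14 in replicate 3, at a median of 16 and 8 reads per CpG. Mean methylation over all CpGs was 67.8% in W796A replicate 3 and 72.5% in replicate 2, so the library with the high Nnat island was not the most methylated of its group.

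**Figure D2:**
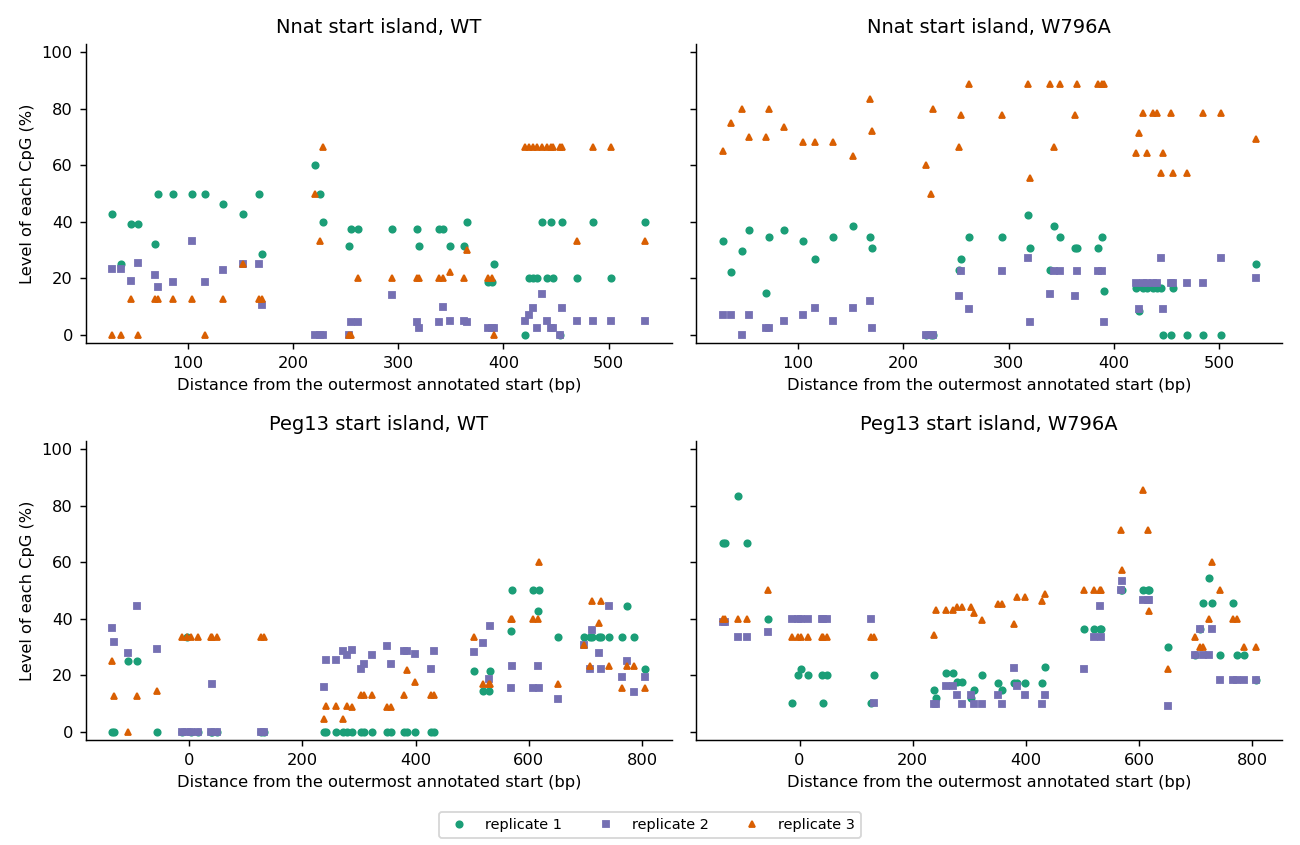
Level of each usable CpG (y axis, percent) by distance from the outermost annotated start (x axis, bp) in the Nnat and Peg13 start islands, for 3 replicates of WT and of W796A (marker colour and shape). In the Nnat island W796A replicate 3 stays at or above 50% along all 44 CpGs, while the Peg13 island shows levels from 0% upward that differ by stretch and replicate.

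Outside the start island the Nnat locus ran from highly methylated to unmethylated. The tile chr2:157557001-157558000, upstream of the start, had the highest WT level outside the promoter, 90.2% ± 5.21 (SD, n = 3), against 22.7% ± 21.9 in W465A and 55.6% ± 13.5 in W465A/W796A. The lowest was chr2:157566001-157567000, in a second island at a Blcap start, where WT had 0.189% ± 0.0939 (SD, n = 3). In that island, chr2:157565661-157566788, no library of any group exceeded 0.759%. The Nnat locus thus held a partly methylated and an unmethylated island side by side in WT.

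The Peg13 start island was partly methylated in WT and W796A too, and had a level in W465A/W796A above that of the other groups with W465A. The promoter, 36 usable CpGs around the 1 annotated start, had a level of 6.54%, 25.4% and 14.5% in WT replicates 1 to 3. In W796A it was 19.7%, 20.2% and 44.5%, so both groups overlapped, with W796A replicate 3 again the highest. In W465A the promoter level was 0.508%, 0.218% and 0.715%, and in W464A/W465A it was 0.110%, 0.590% and 1.30%. In W465A/W796A it was 3.70%, 3.38% and 17.4%, and in W464A/W465A/W796A 0.209%, 1.37% and 0.213%. All 3 W465A/W796A libraries lay above all 9 libraries of the other 3 groups with W465A, and the third reached the WT range. The level of W465A/W796A replicate 2 rested on 14 methylated of 414 reads, with a 95% Wilson interval of 2.02% to 5.60%. Within the island, its only promoter CpGs above 0% were those 132, 127, 41 and -13 bp from the start. Each of these read 66.7%, and the lowest library had 3 reads there, so few fragments set this library apart.

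The whole Peg13 island, chr15:72809380-72810473 with 50 usable CpGs, was steadier in WT than the promoter window. Its level was 19.5%, 24.5% and 18.4% in WT and 23.6%, 22.9% and 43.5% in W796A. In W465A/W796A it was 5.50%, 6.61% and 16.0%, against 0.628% to 1.86% in W465A. The W464A/W465A/W796A libraries had 0.250%, 4.69% and 0.701%, all below the W465A/W796A libraries. Of the 50 CpGs, 20, 35 and 15 were at 0% in W465A/W796A replicates 1 to 3, at a median of 20, 11 and 10 reads per CpG. At this depth a CpG of low level can read 0% by counting error.

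Grb10 carried little methylation on its islands, in contrast to Nnat and Peg13. Its 9 annotated transcripts start in 3 kinds of DNA: 2 CpG islands, a CpG-poorer stretch at the outermost start, and CpG-poor starts in the gene body. Over the 200 usable CpGs near any start the promoter level was 5.51%, 8.93% and 7.04% in WT and 6.03%, 9.29% and 9.15% in W796A. The inner island, chr11:12025327-12026992 with 102 usable CpGs and the starts of Grb10-207 and Grb10-209, had 1.71%, 4.35% and 1.23% in WT replicates 1 to 3. The island at chr11:12036231-12038225, with 126 usable CpGs and the start of Grb10-201, had 1.28%, 3.04% and 1.33%. Both islands were thus nearly unmethylated in WT, and W796A reached at most 4.16% in either.

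The methylation that the choice of Grb10 rests on lay at its outermost start, that of Grb10-206 at base 12038683. Over 13 usable CpGs the level there was 27.0%, 56.7% and 64.5% in WT and 45.3%, 79.5% and 64.5% in W796A. It was 21.3%, 13.3% and 10.5% in W465A, 3.57%, 14.2% and 11.2% in W464A/W465A, 24.4%, 22.7% and 24.7% in W465A/W796A and 4.72%, 8.74% and 6.74% in W464A/W465A/W796A. Every library of those 4 groups lay below every WT library, and W465A/W796A lay above the other 3 groups with no overlap. Restricted to CpGs with at least 5 reads in all libraries, each counted once, the WT mean was 58.0% on 3 CpGs at this start, against 21.1% on 27 CpGs for Nnat and 12.4% on 16 CpGs for Peg13, which are the values that chose the genes.

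Except for Grb10-203, the Grb10 starts in CpG-poor DNA of the gene body were more methylated still. In WT, Grb10-202 had 92.2% ± 2.14 (SD, n = 3), Grb10-205 86.1% ± 8.16, Grb10-208 80.7% ± 8.33 and Grb10-204 80.6% ± 8.90, each on 4 to 8 CpGs. Grb10-203, at 3 CpGs beside the inner island, had 41.9% ± 14.7 (SD, n = 3). In W465A these 5 starts lay between 10.7% and 49.8%, and in W464A/W465A/W796A between 3.41% and 35.6%. Counting every start, Grb10 stood at rank 18 of 40 imprinted promoters by WT level, just under Cdkn1c at 7.58% and above Nespas at 6.76%, while Nnat stood at rank 6 and Peg13 at rank 10. The 5 highest were Meg3 at 58.7%, H19, Slc38a4, Cdh15 and Dlk1 at 25.03%, so by this count the 3 genes did not hold the highest promoter levels of the list.

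**Figure D3:**
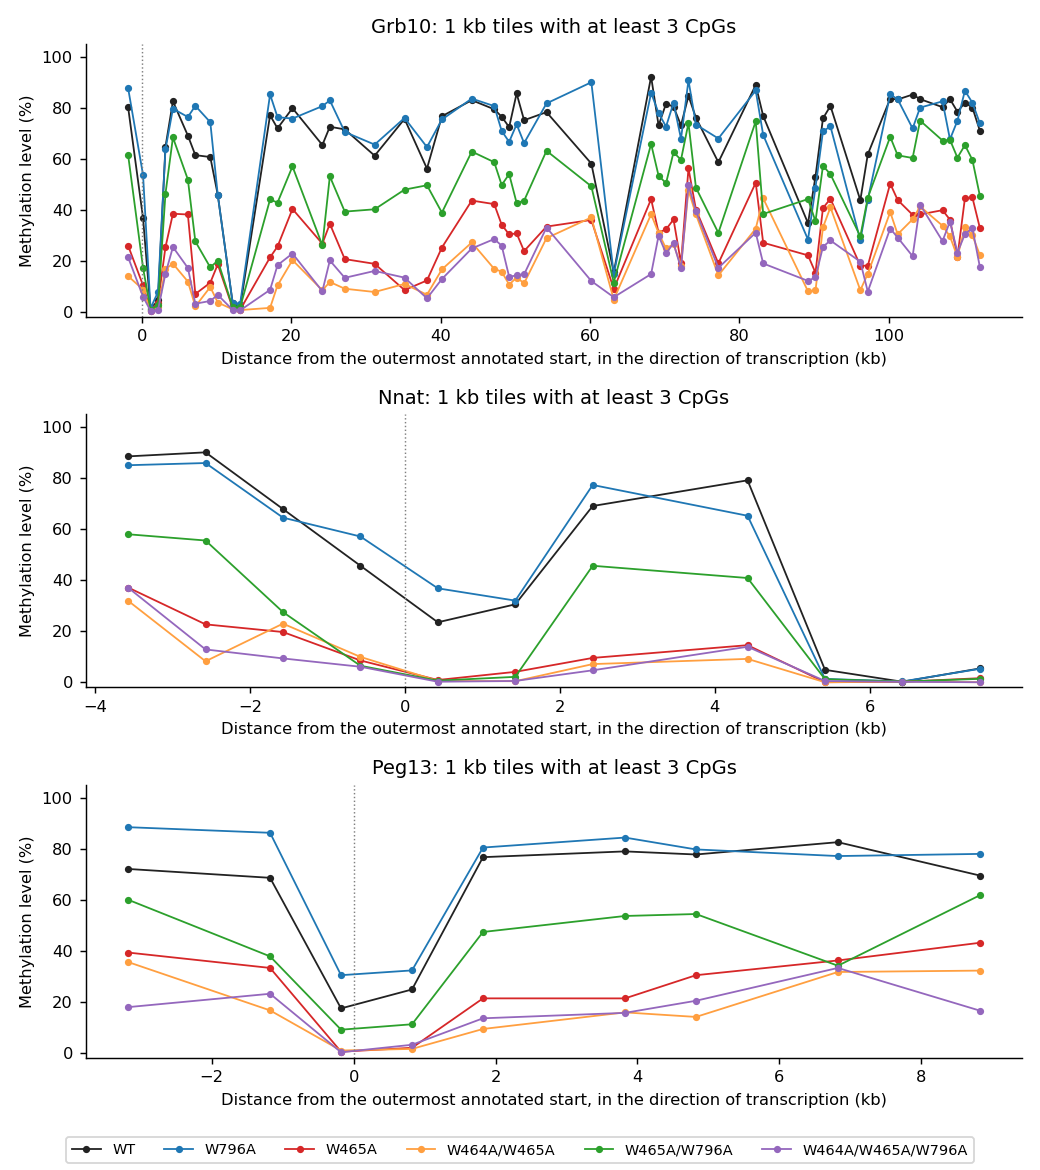
Mean methylation level over 3 libraries per group (y axis, percent) of each 1 kb tile with at least 3 usable CpGs, by distance from the outermost start in the direction of transcription (x axis, kb; dotted line at the start), for the 3 genes and the 6 groups (colours). WT and W796A dip at the starts, to under 10% in the Grb10 island tiles, WT reaches 23.5% and 17.4% in its lowest Nnat and Peg13 promoter tiles, and W465A/W796A lies between WT and W465A over most tiles outside the starts.

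Among the 4 groups with W465A, the effects of adding W464A and of adding W796A on the promoter level were tested without using WT. The exact two-sided permutation test kept libraries within background (400 arrangements, smallest possible p 0.005), with Benjamini-Hochberg adjustment over 6 tests. For Peg13, adding W796A moved the level by 3.80 points (exact p 0.055, adjusted 0.13) and adding W464A by -3.69 points (exact p 0.065, adjusted 0.13). For Grb10, adding W464A moved it by -1.55 points (exact p 0.06, adjusted 0.13) and adding W796A by 0.270 points (exact p 0.685, adjusted 0.685). For Nnat the values were -0.252 points for W464A (exact p 0.265, adjusted 0.318) and -0.322 points for W796A (exact p 0.185, adjusted 0.278). None of the 6 effects passed the test. Without W465A/W796A replicate 3, the Peg13 effect of W796A was 1.496 points, that of W464A -1.38 points and the Grb10 effect of W796A 0.0737 points, and without W464A/W465A replicate 2 the last was 0.529 points.

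For Peg13 and Grb10 the values behind the W796A effects differed by background, a difference that was not tested for the promoters. For Peg13, W796A added to W465A went with a change of 7.68 points, from 0.481% ± 0.250 to 8.16% ± 7.998 (SD, n = 3), and added to W464A/W465A with a change of -0.067 points. For Grb10 the same values were 1.93 points, from 2.94% ± 0.503 to 4.87% ± 0.774 (SD, n = 3), and -1.39 points, from 3.05% ± 0.905 to 1.66% ± 0.163 (SD, n = 3). In Grb10 all W465A/W796A libraries lay above all W465A libraries, and all W464A/W465A/W796A libraries lay below all W464A/W465A libraries. For Nnat the same values were -0.242 and -0.403 points, with every library at or under 1.19%.

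The same question was put to 1 kb tiles, with a quasi-binomial logistic model fitted to all 773438 tiles of the genome that had at least 3 usable CpGs. A tile was called where its Benjamini-Hochberg adjusted p over all tiles was under 0.05 and the pooled reads of the groups differed by 10 percentage points or more. The loci held 77 tested tiles, 57 of Grb10, 11 of Nnat and 9 of Peg13. In W465A/W796A against W465A, 10 of the 77 tiles were called higher (13.0%), 7 of Grb10, 1 of Nnat and 2 of Peg13, against 20.1% of all tiles, and none was called lower, against 0.000776%. The median difference was 18.7 points over the 77 tiles and 21 points over all tiles. The share of called tiles lay below the background, so the count does not set these genes apart. By limma 1 of the 77 was called (1.32% of all tiles), with no squeezing of the spread 5 (6.72%) and with the compared groups fitted alone 24 (34.8%). Leaving out W465A replicate 2 gave 4 (2.86% of all tiles), and leaving out replicate 3 gave 0 (0.279%). Leaving out W465A/W796A replicate 1 also gave 0 (0.0915%). There were 27 and 19 without W796A replicates 1 and 2 (35.9% and 28.2%), which only share the estimate of spread. In these settings the count in the loci moved with that over all tiles. At a minimum of 5 reads it did not. There 1 of 21 tiles of the loci was called higher, a smaller share than in the main fit, and 41750 of 155660 of all tiles, a larger share.

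All 10 called tiles lay away from the promoters. Over the promoters of other imprinted genes 21 of 118 tiles were called higher, against 20.1% of all tiles. Levels of the 10 called tiles ran from 8.49% to 38.4% in W465A and from 44.7% to 74.9% in W465A/W796A, with differences of 22.1 to 44.05 points. The Nnat tile, chr2:157562001-157563000 over the end of the gene, had 9.54% ± 3.45 in W465A and 45.7% ± 5.98 in W465A/W796A (SD, n = 3), a difference of 37.4 points with an adjusted p of 0.00731 in the quasi-binomial model. That tile began less than 2 kb from the start island, which was near 0% in both groups.

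The promoter tiles were few, 2 of Peg13, 3 of Nnat and 10 of Grb10. The share of all tiles that passed the p threshold alone was not counted. Both Peg13 promoter tiles passed the p threshold in W465A/W796A against W465A and missed the 10-point minimum: chr15:72809001-72810000 differed by 8.25 points (adjusted p 0.0385 in the quasi-binomial model) and chr15:72810001-72811000 by 8.40 points (adjusted p 0.0182). None of the 3 Nnat promoter tiles passed, with differences between -2.71 and -0.187 points and adjusted p of at least 0.684. None of the 10 Grb10 promoter tiles passed either. The 2 over the islands with most usable CpGs, chr11:12026001-12027000 and chr11:12037001-12038000, differed by 0.536 and 0.481 points, and that over the outermost start, chr11:12038001-12039000, by 7.31 points (adjusted p 0.173). Whether the genes differ from each other in this effect was not tested.

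**Figure D4:**
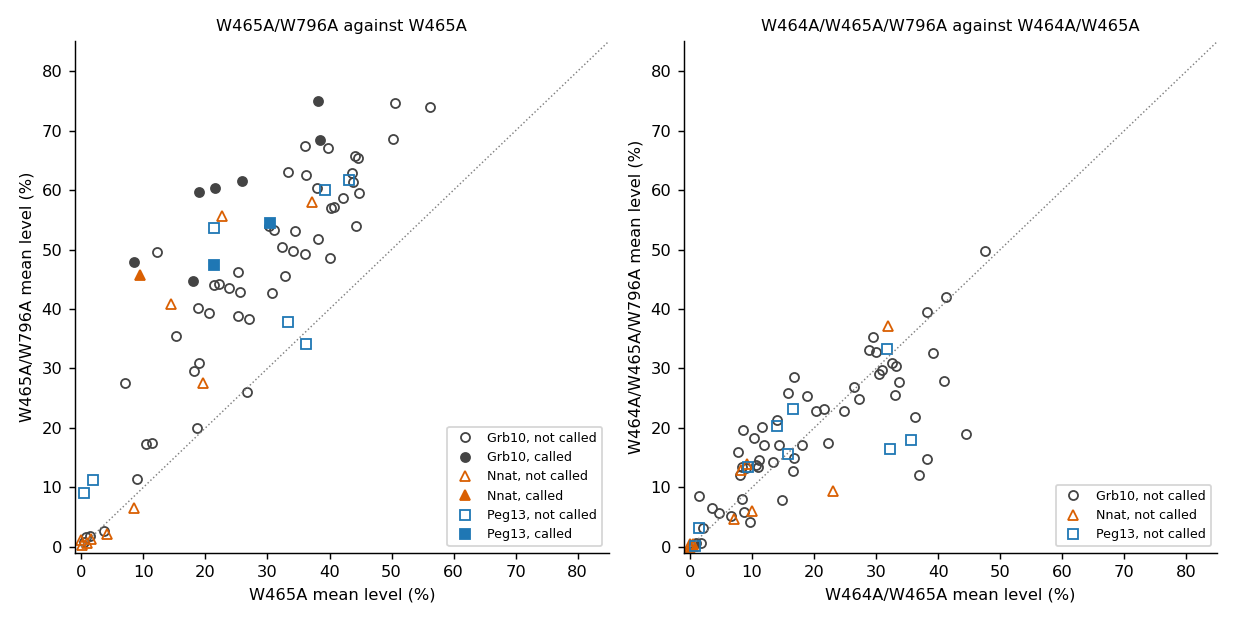
Mean level of each of the 77 tiles with W796A added (y axis, percent) against its level without it (x axis, percent), in the W465A background (left) and in the W464A/W465A background (right), with filled markers for tiles called at an adjusted p under 0.05 and at least 10 points and a dotted line of equal levels. On the left 70 of 77 tiles lie above the line and 10 are called, and on the right tiles scatter about the line and none is called.

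Adding W796A to W464A/W465A gave no called tile in the loci, against 0.0% of all tiles called higher and 0.0% called lower. By the quasi-binomial model 2 of the 77 tiles and 11725 of all tiles had an unadjusted p under 0.05. By limma 0 of the 77 were called. The median difference over the 77 tiles was -0.029 points. The departure from additivity, which sets this against the change in the W465A background, likewise gave 0 called of 77 and 0.0% of all tiles in either direction. Its p-values test additivity on the logit scale of the model, not in percentage points. As a difference of differences in points, its median was -20.6 over the 77 tiles and -22.0 over all tiles. By the quasi-binomial model 16 of the 77 and 166486 of all tiles had an unadjusted p under 0.05. By limma 0 of the 77 were called. Fitting only the compared groups called 8 of the 77 lower (10.4%), against 11.4% of all tiles.

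Adding W464A to W465A gave no called tile in the loci, and adding it to W465A/W796A gave many. In W464A/W465A against W465A the quasi-binomial model called 0 of the 77 tiles, against 0.0% of all tiles in each direction. In that comparison 8 of the 77 and 65224 of all tiles had an unadjusted p under 0.05, 0 of the 77 were called by limma, and the median difference was -6.20 points. In W464A/W465A/W796A against W465A/W796A, 54 of the 77 tiles were called lower (70.1%), 45 of Grb10, 4 of Nnat and 5 of Peg13, against 69.3% of all tiles, and none was called higher, against 0.000259%. The median difference was -29.99 points over the 77 tiles and -30.8 points over all tiles, and each of the 77 tiles had the lower mean in W464A/W465A/W796A. The 2 comparisons do not share a group, and the departure from additivity above is the test of their difference.

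Of the promoter tiles, 6 of 10 in Grb10, none of 3 in Nnat and none of 2 in Peg13 were called in W464A/W465A/W796A against W465A/W796A. Over all tiles 69.3% were called lower, and over the promoters of other imprinted genes 39 of 118 tiles. The counts per gene are thus small, and whether the genes differ was not tested. The Grb10 tile over the outermost start fell by 12.4 points (adjusted p 0.00621 in the quasi-binomial model), from 17.3% ± 1.46 to 5.92% ± 3.67 (SD of 3 libraries). The Grb10 tile chr11:11970001-11971000 over the start of Grb10-202 fell by 48.9 points (adjusted p 0.000492). Both Peg13 promoter tiles passed the p threshold again, at -8.33 and -8.60 points (adjusted p 0.00907 and 0.00214), under the 10-point minimum. In Nnat the 3 differences lay between -2.73 and -0.463 points.

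Away from the promoters, 62 tiles of the loci could be tested against WT, since no CpG in them took part in choosing the genes. Median WT tile levels were 75.6% in Grb10 over 47 tiles, 68.5% in Nnat over 8 and 76.7% in Peg13 over 7. In W465A the medians were 30.7%, 12.03% and 33.3%, and in W465A/W796A 49.7%, 34.2% and 53.6%. In W465A against WT, 55 of 62 tiles were called lower, 44 of Grb10, 5 of Nnat and 6 of Peg13, against 90.6% of all tiles. In W464A/W465A 57 were called lower against 94.3%, and in W464A/W465A/W796A 57 against 94.9%. No tile of the loci was called higher in these 3 comparisons, against 0.000129% of all tiles in W465A, 0.000129% in W464A/W465A and 0.0% in W464A/W465A/W796A.

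W796A alone gave 0 called of 62, against 0.00478% of all tiles called higher and 0.000646% called lower. By the quasi-binomial model 3 of the 62 and 26061 of all tiles had an unadjusted p under 0.05, 0 of the 62 were called by limma, and the median difference was -1.63 points. In W465A/W796A against WT, 18 tiles were called lower, 11 of Grb10, 4 of Nnat and 3 of Peg13, against 29.8% of all tiles, and none higher, against 0.000388%, with a median difference of -21.3 points over the 62 tiles and -21.4 over all tiles. By limma 4 of the 62 were called lower (6.04% of all tiles) and with a replicate block 11 (18.1%). The count was 35, 0 and 8 without WT replicates 1, 2 and 3 (47.7%, 0.00246% and 10.7% of all tiles) and 33 without W796A replicate 1 (46.3%). Leaving out W465A/W796A replicate 2 gave 8 (9.58%), and leaving out replicate 3 gave 4 (4.47%). In the 5 comparisons with WT the loci shared the WT libraries, and their shares of called tiles lay near the background.

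The tiles left uncalled by all 3 of these groups were low in WT. The 5 not called in any of W465A, W464A/W465A and W464A/W465A/W796A were Grb10 tiles chr11:11975001-11976000 and chr11:12036001-12037000 and the 3 Nnat tiles from chr2:157565001 to chr2:157568000, with WT means of 15.4%, 4.42%, 4.86%, 0.189% and 5.41%. A tile under 10% in WT cannot fall by 10 points. The highest Grb10 tile away from promoters, chr11:11988001-11989000, had 85.6% ± 8.97 in WT, 30.7% ± 14.8 in W465A and 42.7% ± 9.76 in W465A/W796A (SD, n = 3). In Peg13 the highest, chr15:72803001-72804000, had 82.6% ± 5.44 in WT, 36.2% ± 18.8 in W465A and 34.1% ± 22.6 in W465A/W796A (SD, n = 3), and the lowest, chr15:72811001-72812000, had 68.6% ± 8.09, 33.3% ± 15.3 and 37.8% ± 1.37. In these 2 Peg13 tiles, with 4 CpGs each, W465A/W796A overlapped W465A.

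Levels of the 3 genes were also read by CpG density. The density of a CpG was the number of CpGs within 250 bp on either side, itself included. Among CpGs with over 20 by this count, those of Grb10 had 1.85% ± 1.09 in WT, those of Nnat 13.2% ± 8.71 and those of Peg13 20.9% ± 2.72 (SD, n = 3), against 7.48% ± 1.78 over all CpGs of this class. This class holds promoter CpGs whose WT level chose the genes, so its WT levels are a description. The Nnat value pools its partly methylated and its unmethylated island. In W465A/W796A the same class had 1.23% ± 0.394, 0.721% ± 0.066 and 9.48% ± 5.86 (SD, n = 3), against 5.38% ± 0.414 over all CpGs. Among CpGs with 1 to 5 by the same count, Grb10, Nnat and Peg13 were close to each other and to the genome in WT, at 72.2% ± 10.1, 72.8% ± 1.18 and 79.6% ± 6.35 (SD, n = 3) against 73.5% ± 9.03. Nnat was lowest of the 3 in W465A in this class, at 20.1% ± 2.94 against 31.5% ± 4.796 in Grb10 and 39.3% ± 9.33 in Peg13 (SD, n = 3), on 8, 192 and 14 CpGs.

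**Figure D5:**
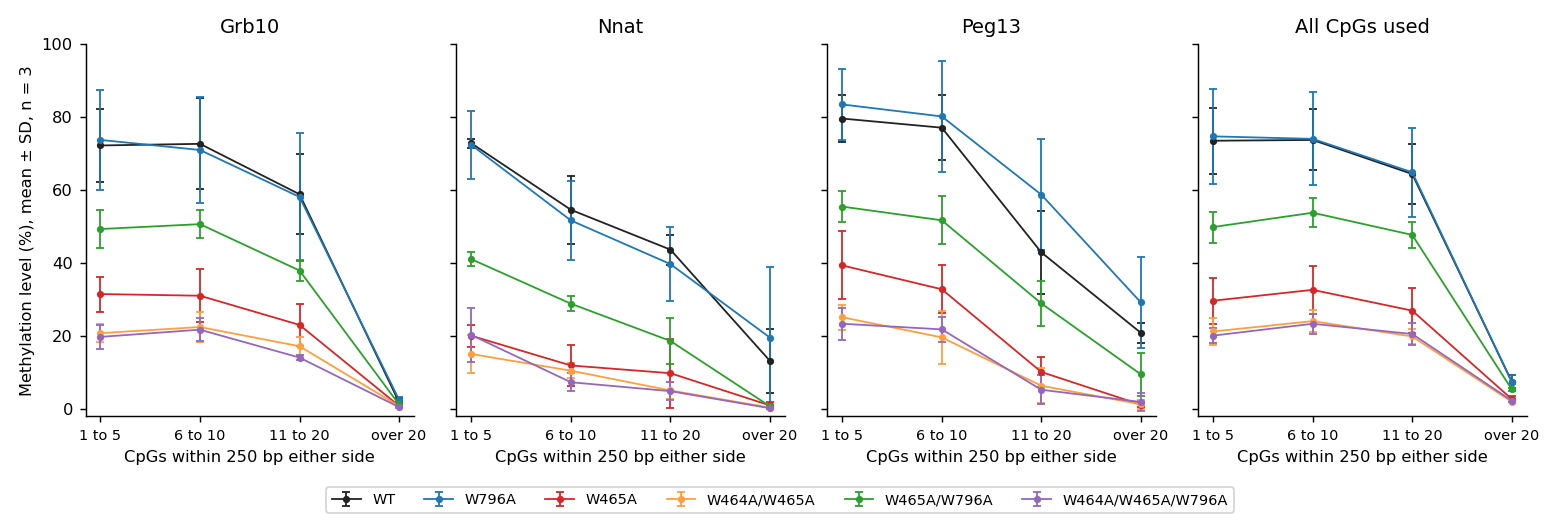
Methylation level (y axis, percent, mean ± SD of 3 libraries) by the number of other CpGs within 250 bp (x axis) for the usable CpGs of Grb10, Nnat and Peg13 and for all usable CpGs, by group (colours). In the densest class Peg13 stands at 20.9% in WT and 9.48% in W465A/W796A, and Grb10 at 1.85% and 1.23%. Nnat, pooled over its partly methylated and its unmethylated island, stands at 13.2% and 0.721%.

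Promoters of the neighbouring genes were read the same way. Blcap, summed over all its starts, had 10.9% ± 8.19 in WT, 17.3% ± 15.9 in W796A and 0.858% ± 0.337 in W465A (SD, n = 3). These starts include the Nnat island and the unmethylated second island, so the value mixes both and is not separate from the Nnat levels. Trappc9, the host of Peg13, had 3.04% ± 1.11 in WT and 2.38% ± 1.501 in W465A/W796A (SD, n = 3), so its own start lacked most of the methylation of the Peg13 island. Ddc, beside Grb10, had 49.3% ± 9.95 in WT and 22.7% ± 10.3 in W465A (SD, n = 3). Over 37 other imprinted promoters the median level was 5.09% in WT, 1.56% in W465A and 3.03% in W465A/W796A, and 13 of them stood at 10% or more in WT. Of 118 tiles over those promoters, 21 were called higher in W465A/W796A against W465A (17.8%), against 20.1% of all tiles, with a median difference of 2.99 points.

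By Pearson's r of promoter levels over the 18 libraries, the promoters most like each gene were taken among 24277 with at least 5 usable CpGs and a median of at least 50 reads. For Grb10 they were Gm19918 (r = 0.978), Mical3 (0.977) and Gsg1 (0.976). For Nnat they were Trip4 (r = 0.960), Gm47545 (0.941) and Gm45231 (0.930), whose levels were far lower, with Trip4 at 2.66% in WT and 0.913% in W465A. For Peg13 they were Zfp202 (r = 0.970), A430073D23Rik (0.969) and Gm29541 (0.967), the last with 16.4% in WT, 29.0% in W796A and 5.83% in W465A/W796A. These r describe the 18 libraries, which share group levels, and carry no test.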

How the data were processed

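The authors deposited, per CpG and library, the count of reads methylated there and that of all reads, both whole numbers with no normalization per the values. The submitters' processing notes name cutadapt 1.2.1, Bismark 0.18.1 and Bowtie 1.2 and the builds mm10 and GRCm38, with no roles. The CpGs listed on chromosomes 2, 11 and 15 were every CpG of the GRCm38 reference there. Removal of duplicates is not given in the sources used here, so reads may not be independent molecules and intervals cover counting error only. No CpG had more methylated than all reads.

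CpGs with at least 1 read in all 18 libraries were used, and reads were summed per region. A promoter was 500 bp on either side of any GENCODE M21 transcript start of the gene. A CpG island was a run of 500 bp windows with at least 55% GC and an observed to expected CpG ratio of at least 0.65. Tiles of 1 kb with at least 3 CpGs were fitted over the whole genome and all 18 libraries (12 residual degrees of freedom), with overdispersion squeezed across tiles (prior 2.97 with 11.1 degrees of freedom) and an F test, with scipy 1.17.1 and numpy 2.4.6 under Python 3.11.15. The alternative was limma 3.58.1 in R 4.3.3 on log2 ratios of methylated to unmethylated counts with 0.5 added. The quasi-binomial model was first tested on simulated data for W465A/W796A against W465A. With 200 of 773438 tiles changed it recovered 27 changed by 40 points and 0 changed by 20 points. In the data 20.1% of all tiles were called higher, which makes the adjusted threshold less strict than in this simulation. Called tiles of the loci differed by 22.1 points or more. The simulated recovery therefore does not measure the power of the test in the data, and a tile that was not called may have changed.

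Named were the 3 genes, in each the tiles over a promoter and the highest and lowest other tile in WT, 3 neighbours, and the 3 promoters most like each gene. Tiles called in a comparison were named after their values were seen. The genes, lists and comparisons were chosen with earlier results of these data known.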

Additional observations from a re-analysis of the deposited data

Results flagged for a closer look

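At the Grb10 promoter, adding W796A went with opposite movements in the 2 backgrounds. All 3 W465A/W796A libraries (4.85%, 4.10% and 5.65%) lay above all 3 W465A libraries (3.48%, 2.49% and 2.85%). All 3 W464A/W465A/W796A libraries (1.49%, 1.82% and 1.68%) lay below all 3 W464A/W465A libraries (2.41%, 4.09% and 2.65%). The 2 differences of means stood 3.31 points apart. This difference was not tested for the promoter as a whole, and the tile model called 0 of its 10 tiles, as it called 0.0% of all tiles, for the departure from additivity. The chromosome 11 read share was 1.41, 1.10 and 1.34 times the median in W465A/W796A replicates 1 to 3, all above the W465A libraries at 0.986, 1.004 and 0.996. It was 0.989, 0.973 and 1.34 times in W464A/W465A/W796A and 0.961, 0.965 and 0.961 times in W464A/W465A. The part of this read share in the promoter levels was not tested.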

How the results depend on the processing

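Leaving out each library in turn moved the Grb10 promoter effects between -1.81 and -1.35 points for W464A and between 0.0737 and 0.529 for W796A, the Nnat effects between -0.420 and -0.143 and between -0.490 and -0.238, and the Peg13 effects between -4.88 and -1.38 and between 1.496 and 4.999. No promoter effect passed the test under any alternative run, with a lowest adjusted p of 0.05 for Grb10 at 10 reads. Counting each CpG once turned the Nnat effect of W464A to 0.145 points, and the logit scale turned the Grb10 effect of W796A to -0.0363, and the cause was not tested. At 10 reads only Grb10 kept CpGs in its promoter. At the outermost start alone, an alternative chosen after seeing the data, the Grb10 effect of W464A was -11.3 points (exact p 0.025, adjusted 0.13).

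Counts of called tiles depended on the minimum of reads, which leaves fewer tiles. At 5 reads 21 tiles were left, of which 1 was called higher in W465A/W796A against W465A (26.8% of all tiles) and 9 lower in W464A/W465A/W796A against W465A/W796A (68.5%). Away from promoters 12 were left, of which W465A against WT had 9 called lower (82.8% of all tiles), W464A/W465A had 10 (84.5%), W465A/W796A had 5 (24.5%) and W464A/W465A/W796A had 10 (84.6%). With 500 bp tiles the first count was 6 of 82 (16.9% of all tiles), with no squeezing 5, by limma 1 and with the compared groups fitted alone 24, and that last fit called 8 tiles lower for the departure from additivity (10.4%, against 11.4% of all tiles). With 5 kb tiles, which are fewer, 24 of 30 were called in W464A/W465A/W796A against W465A/W796A (82.5% of all tiles) and 19 of 20 in each of W465A, W464A/W465A and W464A/W465A/W796A against WT. With at least 1 CpG per tile the counts against WT were 86, 95, 31 and 98 of 109 in the order above (79.2%, 87.4%, 20.6% and 89.5% of all tiles), and limma called 4 in W465A/W796A. Leaving out a library gave 0 to 27 tiles in W465A/W796A against W465A, 37 to 58 in W464A/W465A/W796A against W465A/W796A, 45 to 56, 52 to 58, 0 to 35 and 55 to 58 against WT in that order, and 0 to 1 for the departure from additivity (1 without W796A replicate 1, with 3.93% of all tiles). W464A/W465A against W465A, W464A/W465A/W796A against W464A/W465A and W796A against WT had 0 called tiles in each of these settings.

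The labels number the replicates and give no source for a pairing. Same-numbered libraries of WT and W796A deviated together with r of 0.0695, 0.0824 and 0.0538 over tiles, and no pair of groups reached 0.1 in every pair, so the numbers were not taken to pair the samples. With a replicate block, 11 tiles were called in W465A/W796A against W465A (10 without) and 11 against WT (18), and the promoter effects gave adjusted p of at least 0.375.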
